A study of Homo sapiens with 3 samples.

Results

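Transcripts of HepG2 cells given 10 μM etoposide for 30 h were compared, gene by gene on 1-color Agilent arrays, with those of HepG2 cells given 100 μM for the same time. Both arrays of this pair of doses were used, with no selection of genes. The 2 arrays are 2 of the 3 of the series. The other array, from HepG2 cells given 0 μM etoposide and labelled untreated, is shown beside them as the background. The paper gives its array ratios relative to DMSO. HepG2 is an established human hepatocarcinoma line with wild-type p53, and no engineered genotype is given for these cells. The lower dose served the study to obtain senescent cells and the higher to obtain apoptotic cells, so the comparison asks which transcripts differ between the doses at the same time point. There was 1 array per dose, so no p-value is given, and each ratio describes these 2 RNA samples. Since RNA came from whole cultures, fewer cells of a kind and less RNA per cell cannot be told apart.

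Etoposide traps topoisomerase II on DNA after it has cut both strands, and the resulting breaks activate the checkpoint kinases and p53. Genes of DNA replication and mitosis are transcribed in waves in dividing cells. E2F factors drive the wave before S phase, and the MuvB complex with MYBL2 and FOXM1 drives the wave before mitosis. When p53 induces p21, the E2F sites and the cell cycle homology region (CHR) of these promoters are bound by repressor complexes built on the pocket proteins RB1, RBL1 and RBL2.

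The promoters of 6 of the genes furthest toward 10 μM were picked because they carry the letters of these sites. Of 13 promoters read among the 15 genes furthest toward 10 μM, 3 held the CHR letters and 4 the E2F letters in the stretch shown, and 6 held neither, SPC25 and NDC80 among them. Each is the stretch of 120 bases before the start site in the RefSeq table on GRCh38.p14, 5′ to 3′ on the strand of the gene. Capitals mark matches on either strand to TTTGAA (CHR), to TTTCCCGC or TTTGGCGC (E2F), and to CCAAT (NF-Y). They belong to KIF4A (chrX:70289984-70290103, plus strand), BUB1B (chr15:40160949-40161068, plus strand), HIST1H3B, now H3C2 (chr6:26032100-26032219, minus strand), DTL (chr1:212035628-212035747, plus strand), E2F2 (chr1:23531234-23531353, minus strand) and GINS2 (chr16:85688955-85689074, minus strand).
KIF4A: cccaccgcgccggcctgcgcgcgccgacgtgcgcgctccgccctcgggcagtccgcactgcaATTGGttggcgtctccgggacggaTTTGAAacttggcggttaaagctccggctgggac
BUB1B: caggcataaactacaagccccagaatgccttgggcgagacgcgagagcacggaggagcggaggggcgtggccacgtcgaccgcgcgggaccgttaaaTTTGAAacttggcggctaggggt
HIST1H3B: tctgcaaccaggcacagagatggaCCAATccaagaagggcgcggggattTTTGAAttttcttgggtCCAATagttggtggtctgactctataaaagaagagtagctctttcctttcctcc
DTL: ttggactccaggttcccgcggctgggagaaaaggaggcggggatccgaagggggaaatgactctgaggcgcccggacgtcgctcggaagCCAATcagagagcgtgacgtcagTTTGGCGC
E2F2: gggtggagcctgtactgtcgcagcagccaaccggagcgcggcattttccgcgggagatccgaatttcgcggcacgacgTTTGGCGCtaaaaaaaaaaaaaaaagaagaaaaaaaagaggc
GINS2: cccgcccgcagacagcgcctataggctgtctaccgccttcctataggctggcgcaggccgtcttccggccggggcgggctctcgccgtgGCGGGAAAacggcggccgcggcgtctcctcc

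The same letters, and those of a cAMP response element (CRE, TGACGTCA), were counted in the 300 bases from 250 before to 50 after the start of each gene. No motif's letters lie within those of another. Such a promoter was found for 10289 of the genes well above background on both arrays. The CHR letters were in 28.3% of the genes more than 2-fold higher at 10 μM, compared with 9.79% of all these genes and 11% of those more than 2-fold higher at 100 μM. The E2F letters were in 13.1%, 3.48% and 1.75% of the same sets. The NF-Y letters were in 54.3%, 36.4% and 33.8%, and the CRE letters in 6.57%, 3.15% and 0.439%. Over all 27305 promoters of the table, the shares were 15.4% for CHR, 2.31% for E2F, 35.7% for NF-Y and 1.98% for CRE. The CHR letters were in 62.5% of the promoters of kinetochore and spindle checkpoint genes and 72.7% of those of mitotic kinesin, spindle and cytokinesis genes, but in 1 of 21 promoters of origin licensing and helicase genes. The E2F letters had the opposite distribution, in 42.9% of the licensing promoters and 8.33% of the kinetochore promoters. Of the 38 genes whose promoter held both the CHR and the E2F letters, 23.7% were more than 2-fold higher at 10 μM. The share was 13.4% with E2F alone, 10.6% with CHR alone and 2.69% with neither. A match is a string of letters and does not show that a factor was bound.

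A probe was read as measured where the scanner software called most of its spots well above background, which held for 19836 of 34127 probes at 10 μM and 20151 at 100 μM (20114 in control cells). Log2 signals were scaled by subtracting the array's own 75th percentile over probes, which was 536 at 10 μM and 432 at 100 μM (514 in control cells). Of 27274 gene names, 16791 were well above background on at least 1 of the 2 arrays and 15435 on both. For a gene above background at 1 dose only, the dim side was raised to the detection floor of its array (22.7 at 10 μM, 21.6 at 100 μM), the dimmest signal there of a probe well above background, and the fold is given as "at least". Signals in the text are those before scaling, and ratios are those after it. The error given with a ratio is the SD expected between spots, from 999 probes spotted repeatedly on each array, and does not cover cultures.

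In total, 610 genes were more than 2-fold higher at 10 μM than at 100 μM, which is 3.63% of the genes compared. Another 663 genes were more than 2-fold higher at 100 μM, or 3.95%. Of the first set, 509 were measured on both arrays (3.3% of 15435) and 101 were lower bounds. Of the second set, 413 were measured on both (2.68%) and 250 were bounds. Larger differences were mostly toward 10 μM, with 204 genes more than 4-fold higher there and 60 more than 4-fold higher at 100 μM, of which 170 and 26 were measured on both arrays. Within 1.5-fold of each other were 81.4% of the genes measured on both arrays, and the median log2 ratio of all genes compared was −0.11. The split depended on the scaling, since the genes higher at 10 and at 100 μM numbered 1002 and 288 without scaling, and 842 and 342 when the 7 spike-in controls were set equal. Those controls were 0.086 ± 0.049 (SD over controls) log2 units brighter at 10 μM before scaling, and the 75th percentile was 0.31 brighter.

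**Figure D1:**
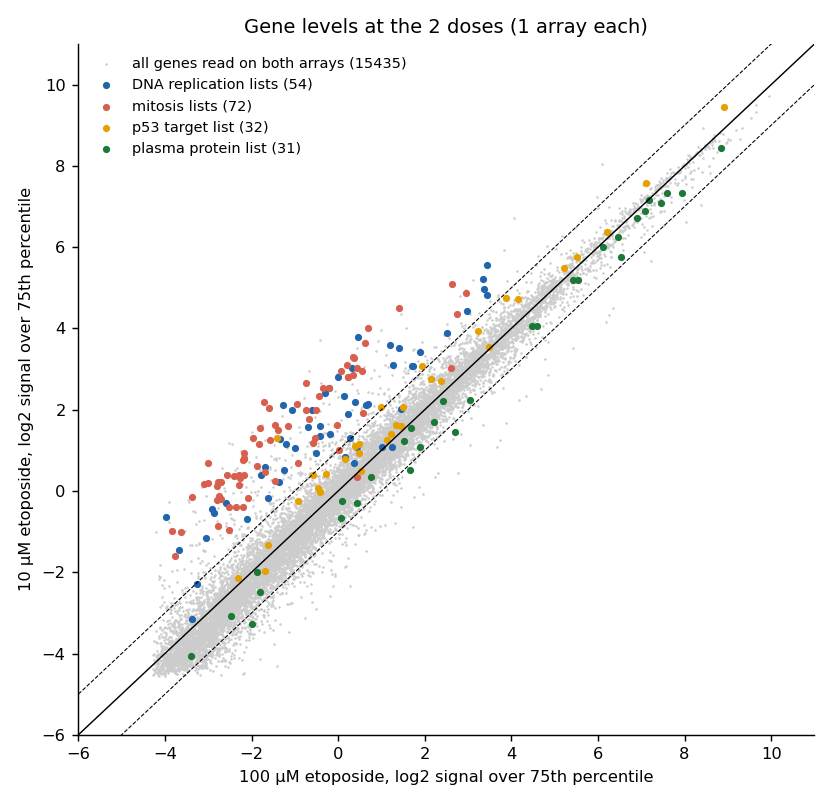
Each point is 1 gene measured on both arrays, with its level at 100 μM etoposide on the x axis and at 10 μM on the y axis (log2 signal over the 75th percentile of the array, 1 array each), the solid line marking equality and the dashed lines 2-fold. Most members of the DNA replication and mitosis lists sit above the upper dashed line, p53 targets lie mostly between the lines and plasma proteins lie just below equality.

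The 509 genes higher at 10 μM and measured on both arrays had a median signal of 997 there. Relative to control cells, 394 of them were higher at 10 μM and 458 were lower at 100 μM. For 343 of them the control level lay between the doses. The 413 genes higher at 100 μM were dimmer, with a median signal of 132 at 100 μM. Of these, 130 were higher at 10 μM than in control cells, 8 were lower at 100 μM than in control cells, and 275 had a control level between the doses. The spot error was 0.076 (median) in the first set and 0.16 in the second, so 117 genes of the first set and 251 of the second lay within 2 spot SDs of the 2-fold threshold.

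The 15 genes furthest toward 10 μM, among those with a RefSeq mRNA accession measured on both arrays, were genes of replication, of its chromatin, of mitosis and of strand exchange. SPC25, a subunit of the NDC80 complex that holds microtubules at the kinetochore, had a signal of 1503 in control cells, 2431 at 10 μM and 132 at 100 μM. Its log2 ratio of the low over 100 μM was 3.89 ± 0.09, a 14.8-fold difference, from a probe at chr2:169436202-169436261 (hg18). NDC80 itself had signals of 3148, 3411 and 258 in the same order, with a log2 ratio of 3.41. Both genes were near or above the control level at 10 μM and far below it at 100 μM. DTL, the substrate receptor that marks CDT1 and p21 for degradation at replicating DNA, had signals of 467, 1211 and 75.3 (log2 ratio 3.70 ± 0.04). E2F2, an activating E2F, had signals of 1189, 4131 and 273 (3.61 ± 0.08). For both, 10 μM lay above and 100 μM below control cells.

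Among the other genes of this end, KIF4A, a chromosome-bound kinesin, had signals of 810, 864 and 53.7 (log2 ratio 3.70). BUB1B, the checkpoint protein BubR1, had signals of 1184, 1566 and 123 (3.36). MELK, a kinase of dividing cells, had 798, 1477 and 109 (3.45). In each of these the low-dose signal was above control and the high-dose signal was far below it. MND1, a partner in meiotic strand exchange, stood at 1132, 1660 and 127 (3.39). The histone H3 genes HIST2H3A (5603, 7015 and 325, log2 ratio 4.12) and HIST1H3B (9684, 7416 and 582, log2 ratio 3.36) completed the list with PBK, DSCC1, GINS2, MCM10 and CDC45L, whose ratios ran from 3.33 to 3.65. Histone genes of a type are near-identical in their coding sequence, so 1 probe may read several of them.

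Of genes above background at 10 μM but not at 100 μM, the 5 largest bounds were those of CENPK (at least 11.4-fold), ANLN (at least 9.47-fold), AURKB (at least 8.88-fold), GRIN1 (at least 7.47-fold) and KIF24 (at least 6.93-fold). CENPK is a centromere protein, anillin builds the cleavage furrow and Aurora B is the kinase of the chromosomal passenger complex. GRIN1, an NMDA receptor subunit, stood apart from these, since its signal was 4.41 in control cells, 201 at 10 μM and 5.25 at 100 μM on a probe with 1 spot. Its other probe was not well above background on any array.

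**Figure D2:**
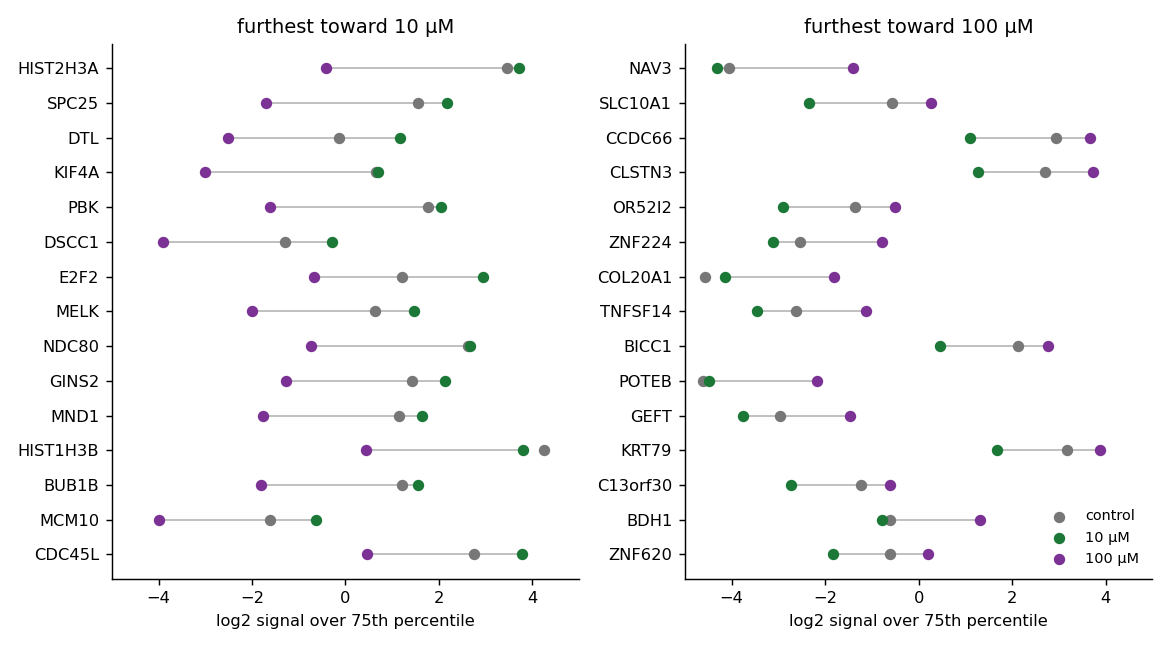
Levels (log2 signal over the 75th percentile, 1 array each) of the 15 genes furthest toward 10 μM (left) and the 15 furthest toward 100 μM (right) in control cells (grey), at 10 μM (green) and at 100 μM (purple). On the left 100 μM lies far below control in genes such as SPC25 (132 against 1503 in control cells). In E2F2 and DTL the low-dose point also stands well above control. On the right several genes such as CCDC66 and KRT79 have a low-dose point well below control.

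Replication genes were higher at 10 μM across their roles. Of 26 origin licensing and helicase genes, 22 (84.6%, beside 3.63% of all genes) were more than 2-fold higher at 10 μM and 0 at 100 μM, with a median log2 ratio of 2.04. GINS2, a subunit of the GINS part of the replicative helicase, had signals of 1377 in control cells, 2345 at 10 μM and 179 at 100 μM (log2 ratio 3.40). CDC45L, now CDC45, which completes the helicase, had 3455, 7358 and 592 (3.33), and MCM10 had 169, 344 and 27.3 (3.35). CDT1, which loads the MCM ring, had 2112, 3778 and 433 (2.81). All 4 were highest at 10 μM and lowest at 100 μM. The 4 lowest members were all subunits of the origin recognition complex, ORC3L (0.56), ORC5L (0.33), ORC2L (0.06) and ORC4L (−0.17, on a probe with an 8-base run of alternating G and A, a feature returned to with the genes higher at 100 μM). ORC1L, the subunit made in dividing cells, had signals of 133, 197 and 33.8 (2.23), and ORC6L had 441, 701 and 125 (2.18), so the complex was divided within the list. These 2 were named after their values were seen.

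Of 32 genes of the replication fork and of chromatin assembly behind it, 28 (87.5%) were more than 2-fold higher at 10 μM and 0 at 100 μM, with a median of 1.79. UHRF1, which recruits the maintenance DNA methyltransferase, had signals of 1233, 2133 and 205 (log2 ratio 3.07). The 3 next members were histone chaperones of new chromatin, CHAF1A (2.72), ASF1B (2.61) and CHAF1B (2.60). ASF1A, the paralog of ASF1B, had signals of 78.9, 60.1 and 41.7 (0.21), so the 2 paralogs stood at opposite ends of the list. PCNA, the sliding clamp and a p53 target, had 3886, 16892 and 4472 (1.61), with a low-dose signal far above control and a high-dose signal near it.

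Nucleotide supply was less uniform. Of 18 genes, 8 (44.4%) were more than 2-fold higher at 10 μM, with a median log2 ratio of 0.80. The ribonucleotide reductase subunits RRM2 (332, 764 and 83.5, log2 ratio 2.88) and RRM1 (3550, 6908 and 819, log2 ratio 2.77) led, with the thymidine kinase TK1 (2.67). At the lower end were PPAT (0.47), which starts purine synthesis, UMPS (0.41), which ends pyrimidine synthesis, IMPDH1 (0.35) and the deaminase DCTD (−0.02).

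The E2F family split by member. E2F2 (3.61), E2F1 (3.01) and E2F7 (2.71) were all more than 4-fold higher at 10 μM, and E2F8 was at least 4.18-fold higher. E2F1 had signals of 486, 936 and 93.7, below control at 100 μM. E2F7, an atypical repressor and p53 target, had 160, 1324 and 163. Its scaled level was −1.69 in control cells and −1.41 at 100 μM, so 100 μM lay slightly above control. E2F3 (0.34), E2F4 (0.01), E2F5 (0.44) and E2F6 (0.06) were all within 1.5-fold between doses. Of the pocket proteins, RBL1 (p107) had signals of 124, 191 and 50.9 (1.60), while RB1 (0.54) and RBL2 (p130, 0.25) stood lower. In all, 5 of 13 genes (38.5%) were more than 2-fold higher at 10 μM.

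Mitotic genes gave the highest medians of the 32 gene lists. All 28 of the mitotic kinesin, spindle and cytokinesis genes above background were more than 2-fold higher at 10 μM (median 2.76), of 29 on the array. KIF15 had signals of 696, 604 and 50.2 and KIF11, the kinesin that pushes spindle poles apart, 1046, 1321 and 110, both with a log2 ratio of 3.27. CKAP2 (1.005) and CKAP5 (1.33) were the lowest of the list, and CKAP2 was within the spot error of the threshold. Of 35 kinetochore and spindle checkpoint genes, 32 (91.4%) passed and 0 were on the other side, with a median of 2.63. The lowest of those measured on both arrays were BUB3 (4230, 4392 and 2638, log2 ratio 0.42) and MIS12 (476, 686 and 589, log2 ratio −0.09). CENPI (at least 1.56-fold) and CENPL (at least 2.12-fold) were dim and had low bounds, which do not rank them. Of 18 mitotic entry genes, 17 (94.4%) passed, with a median of 2.51. FOXM1, the mitotic transcription factor, had signals of 897, 1031 and 95.3 (3.12), CDC25C 533, 624 and 62.8 (2.999) and cyclin A2 (CCNA2) 837, 920 and 95.2 (2.96). At 10 μM these 3 signals were near those of control cells.

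Median levels of the lists were also set beside control cells. That of the licensing list was 1.22 in control cells, 1.91 at 10 μM and 0.00 at 100 μM (log2 over the 75th percentile). For the replication fork list it was 0.95, 1.30 and −0.18, for the kinesin list 0.92, 1.02 and −1.88, and for the kinetochore list 1.02, 1.21 and −1.52. The mitotic entry list went from 1.11 to 0.94 and −0.93.

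Genes of homologous recombination and the Fanconi anemia pathway, which repair breaks and cross-links with a sister strand, were close to the replication genes. Of 28, 20 (71.4%) were more than 2-fold higher at 10 μM, with a median of 1.73. The helicase gene BLM had signals of 470, 1065 and 91.6 (log2 ratio 3.23), FANCI 1074, 1940 and 176 (3.15), and BRCA1 583, 1273 and 133 (2.95). XRCC3 was the lowest on its brightest probe (63558, 58271 and 66936, log2 ratio −0.51), but its other probe, designed to its RefSeq mRNA, had 369, 699 and 141 and gave 2.002. Of 15 checkpoint kinases and adaptors, 5 (33.3%) passed. They were H2AFX (1.74), CHEK1 (1.59), CHEK2 (1.27), MRE11A (1.10) and RAD1 (1.04). ATM, the kinase that responds to breaks, had signals of 419, 275 and 222 (0.00) on its brightest probe, and 111, 99 and 127 (−0.67) on its other probe. By brightest probe, TP53BP1 was the lowest at −0.21.

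Of 18 genes of condensin, cohesin and topoisomerase II, 9 (50%) passed. TOP2A, the etoposide target made in dividing cells, had signals of 803, 962 and 117 (log2 ratio 2.73). TOP2B, the form present in all cells, had 3028, 2368 and 1971 (−0.05). The condensin subunit NCAPG (3.19) and the cohesin acetyltransferase ESCO2 (3.15) led the list. PDS5A (0.24 on its brightest probe, 0.87 and −0.55 on the others), WAPAL (0.10) and ESCO1 (−0.15), which regulate cohesin, ended it with TOP2B. Of 9 genes of the nuclear lamina and HMG proteins, LMNB1, a lamin lost in senescent cells, had signals of 669, 608 and 93.2 (2.40), and HMGB2 had 7063, 5498 and 936 (2.24). HMGB3 (1.48) and TMPO (1.21) passed too. LMNA (11409, 17277 and 13328, log2 ratio 0.06) and HMGA2 (0.04) were the lowest.

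Clustered histone genes went both ways. Of 61, 23 (37.7%) were more than 2-fold higher at 10 μM and 5 (8.2%, beside 3.95% of all genes) at 100 μM. The leading genes encode histone H3. HIST1H3F had signals of 4606, 3942 and 424 (log2 ratio 2.91) and HIST1H3D 13487, 10896 and 1185 (2.89). At the other end, HIST2H2AA4 had 355, 411 and 1182 (−1.84 after scaling), HIST1H2AD 3178, 2974 and 4987 (−1.06) and HIST1H1C 6868, 6243 and 10250 (−1.03). HIST1H2BA and HIST1H1A were above background only at 100 μM, by at least 3.46-fold and at least 2.34-fold.

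**Figure D3:**
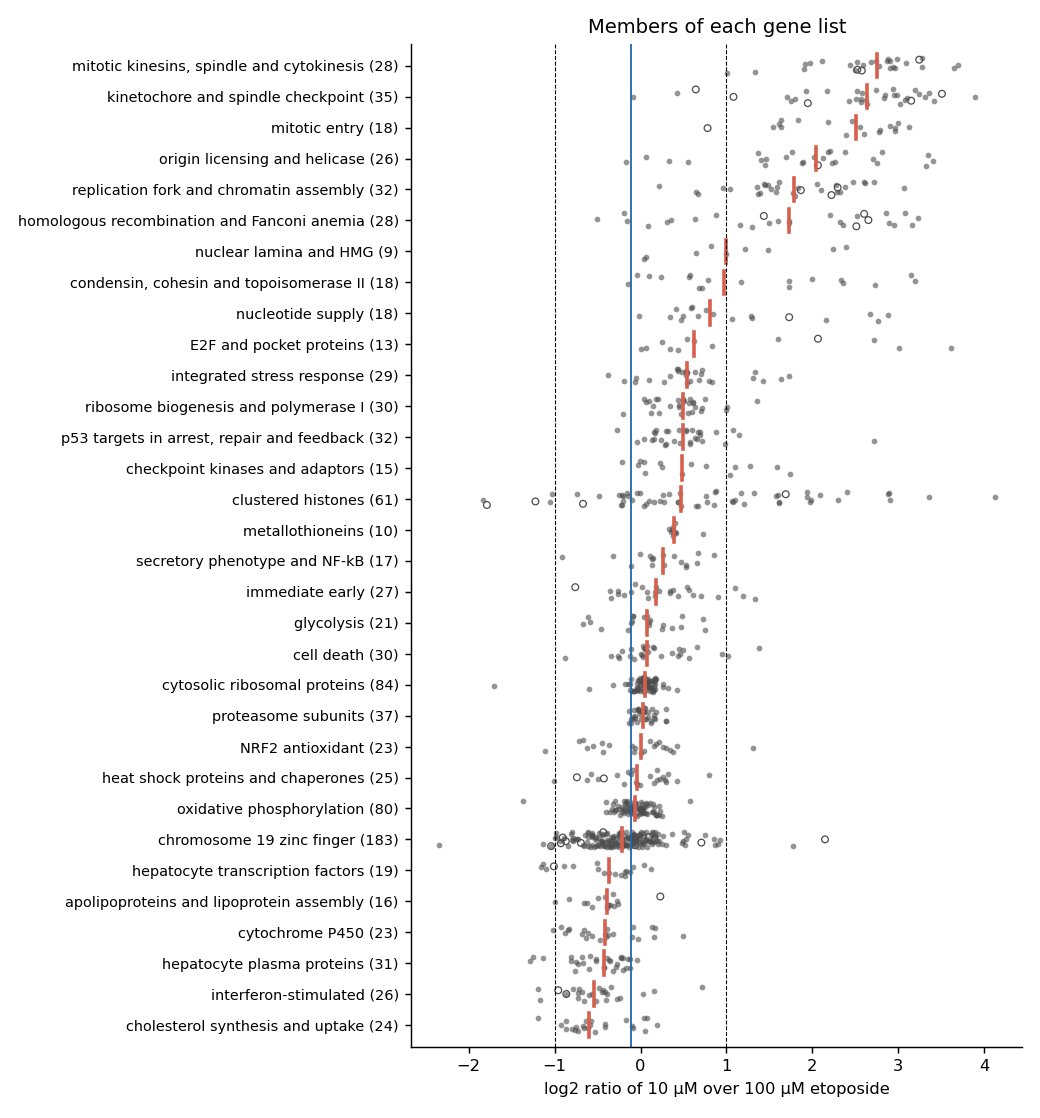
The x axis is the log2 ratio of 10 μM over 100 μM etoposide, and each row is a gene list with its number of members compared. Filled points are members measured on both arrays, open points are members above background on 1 array, red bars are list medians, the blue line is the median of all genes (−0.11) and dashed lines mark 2-fold. The replication, recombination and mitosis lists lie to the right, with medians from 1.73 to 2.76, and the liver, interferon and cholesterol lists lie to the left of the blue line.

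The listed targets of p53 differed between the doses far less than the lists of cell cycle genes. Of 32 targets in arrest, repair and feedback, 3 (9.38%, beside 3.63% of all genes) were more than 2-fold higher at 10 μM. At 100 μM 0 were higher, and the median was 0.50. Of these, 30 had a ratio above 0. The 3 were E2F7, the ubiquitin ligase MDM2 (616, 4522 and 1652, log2 ratio 1.14), which was 1.14 on the brightest of its 3 probes and 0.82 and 0.70 on the others, and the phosphatase PPM1D (693, 2229 and 855, log2 ratio 1.07). EPHA2 had signals of 415, 705 and 288 (0.98). The list does not hold every p53 target, and PCNA (1.61), named above as one, was not on it. At the low end, KIAA0247 (0.13), PLTP (0.04), SPATA18 (−0.04) and C12orf5, now TIGAR (58.5, 137 and 134, log2 ratio −0.28), were above control at both doses by similar amounts. Of 30 cell death genes, 2 (6.67%, beside 3.63% of all genes) passed, BIK (757, 1206 and 373, log2 ratio 1.38) and BIRC3 (1.01). APAF1 (33, 80.4 and 33.7, log2 ratio 0.94) had a scaled level of −3.96 in control cells and −3.68 at 100 μM. AIFM2 (918, 1070 and 1582) was the lowest at −0.88. The list's median was 0.07 and turned to −0.004 with the percentile of all spots.

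Of 27 immediate early genes, which respond to stress within minutes of a signal, 3 (11.1%, beside 3.63% of all genes) passed. ATF3 had signals of 2021, 4009 and 1279 (log2 ratio 1.34) on its brightest probe, but its other 3 probes gave 0.91, 0.88 and −0.31. IER3 had 19784, 34827 and 12311 (1.19) and IER5 1191, 4792 and 1799 (1.10). All 3 were above control at 10 μM, and ATF3 and IER3 were below control at 100 μM. The integrated stress response list held 5 of 29 genes (17.2%, beside 3.63% of all genes) more than 2-fold higher at 10 μM. MTHFD2 (5937, 4361 and 1064, log2 ratio 1.72) and the asparagine synthetase ASNS (31797, 17396 and 4502, log2 ratio 1.64) led it with DDIT4 (7297, 4136 and 1245, log2 ratio 1.42), ATF3 and SLC7A11 (1.31). MTHFD2, ASNS and DDIT4 were below control at 10 μM already and lower again at 100 μM. Ribosome biogenesis had the same order, with a median level of 2.69 in control cells, 2.23 at 10 μM and 1.89 at 100 μM. Of its 30 genes, 2 (6.67%, beside 3.63% of all genes) passed, POLR1E (327, 283 and 88.7, log2 ratio 1.36) and fibrillarin (FBL, 1.01). No gene of the secretory phenotype and NF-κB list passed 2-fold in either direction, and of its 35 members 17 were above background, with CCL20 the highest at 0.86 (211, 355 and 158) and AREG the lowest at −0.91 (82, 138 and 209).

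Liver genes lay on the other side of the median of all genes, by small amounts. All 31 plasma protein genes above background had a ratio below 0, with a median of −0.42. The median of all genes was itself below 0 (−0.11), and 1 of the 31 lay above it. Of the 31, 3 (9.68%, beside 3.95% of all genes) were more than 2-fold higher at 100 μM. These were ITIH4 (61.8, 55.4 and 109, log2 ratio −1.28), the fibrinogen chain FGA (911, 1473 and 2826, log2 ratio −1.25) and ITIH3 (575, 768 and 1366, log2 ratio −1.14). FGA gave −1.12 and −1.09 on its other 2 probes. AFP, the fetal albumin made by hepatocarcinoma cells, had 79159, 76186 and 62990 (−0.04). Of 16 apolipoprotein and lipoprotein assembly genes 0 passed, and 15 had a ratio below 0 (median −0.39), with 1 above the median of all genes. The largest was APOC4 (101, 125 and 201, log2 ratio −0.99). Of 19 hepatocyte transcription factors, 4 (21.1%, beside 3.95% of all genes) were more than 2-fold higher at 100 μM. They were ONECUT1 (34.6, 43.1 and 77.4, log2 ratio −1.16), HNF4A (50.7, 30.4 and 53.7, log2 ratio −1.13), NR1H4, the bile acid receptor FXR (1217, 548 and 946, log2 ratio −1.10), and NR1I3 (23.4, 12.4 and 36.7, at least 2.01-fold). In HNF4A and NR1I3 10 μM was the array that stood below control. NR1H4 was far below control at 10 μM and slightly below it at 100 μM (scaled levels of 1.24 in control cells, 0.03 and 1.13). The signals of ONECUT1, HNF4A and NR1I3 were near the background. FOXA1 (0.04) and FOXA2 (0.12) were the highest of the list.

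Of 24 cholesterol synthesis and uptake genes, which answer to the transcription factor SREBP2, 20 had a ratio below 0 and 6 lay above the median of all genes. The median was −0.60, the lowest of the 32 lists other than cell type markers. SC4MOL, now MSMO1, was the 1 member past 2-fold (184, 124 and 227, log2 ratio −1.19), or 4.17% beside 3.95% of all genes. It was followed by the mevalonate decarboxylase MVD (650, 612 and 936, log2 ratio −0.92). Of 23 cytochrome P450 genes above background, of 38 on the array, 1 passed (4.35%, beside 3.95% of all genes). It was CYP8B1, the sterol 12-alpha-hydroxylase gene of bile acid synthesis (134, 156 and 255, log2 ratio −1.02). The shares of the cholesterol and cytochrome P450 lists were thus near that of all genes. Of 26 interferon-stimulated genes, 23 had a ratio below 0 (median −0.54) and 3 lay above the median of all genes. Of the 26, 2 passed (7.69%, beside 3.95% of all genes), IFI6 (111, 130 and 240, log2 ratio −1.19) and IFIT1 (342, 242 and 440, log2 ratio −1.17). OAS3 (83.1, 209 and 103, log2 ratio 0.72) and TRIM22 (16, 122 and 87.6, log2 ratio 0.16), the second also a p53 target, were the highest. Members of the interferon and cytochrome P450 lists were dim (median level at 10 μM −1.15 and −1.75), and the part of level in their ratios was not tested.

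The signs of the medians of the liver, cholesterol and interferon lists held under the 6 other scalings, although without scaling the plasma protein median was −0.11, and the number of genes past 2-fold toward 100 μM ran from 0 to 3 for plasma proteins, 0 to 4 for hepatocyte transcription factors, 0 to 3 for interferon-stimulated genes, 0 to 2 for cytochrome P450 genes and 0 to 1 for cholesterol genes. Minus the median of all genes, the plasma protein median lay between −0.338 and −0.315 under these scalings, the cholesterol median between −0.557 and −0.496 and the kinetochore median between 2.74 and 2.79.

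**Figure D4:**
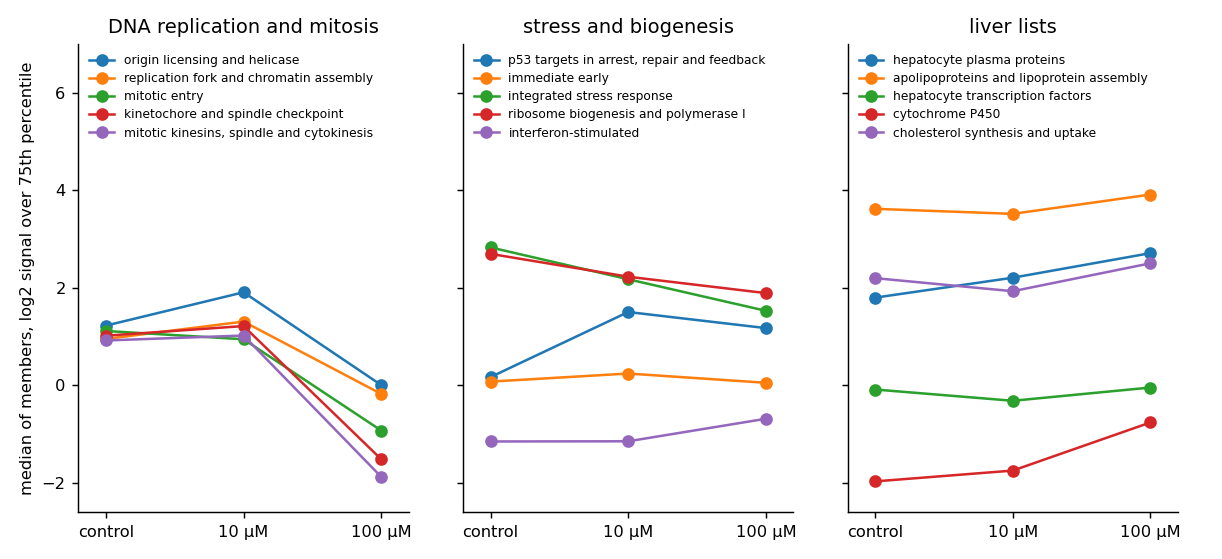
Median level of the members measured on both arrays (log2 signal over the 75th percentile, 1 array per condition) for 5 lists in each of 3 panels, in control cells, at 10 μM and at 100 μM etoposide. The replication and mitosis lists fall mainly at 100 μM (kinesin list 0.92, 1.02 and −1.88), the integrated stress response and ribosome biogenesis lists step down at both doses, and the p53 target list is raised at both (0.17, 1.501 and 1.17).

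The abundant housekeeping lists were nearly level between the doses. Of 84 cytosolic ribosomal protein genes 0 were more than 2-fold higher at 10 μM and 1, RPL39L (124, 59.8 and 157, log2 ratio −1.70), at 100 μM, with a median of 0.06. The medians were 0.03 for 37 proteasome subunits, −0.06 for 80 oxidative phosphorylation genes, 0.08 for 21 glycolysis genes, 0.00 for 23 NRF2 antioxidant genes and −0.05 for 25 heat shock proteins and chaperones, with at most 1 gene past 2-fold in a direction. Among these the cystine transporter SLC7A11 (4579, 1792 and 584, log2 ratio 1.31) was below control at both doses, HSPA1A (53.8, 171 and 277) stood at −1.005 and COX6A2 (49.8, 38.7 and 80.8) at −1.37. The signs of the ribosomal, proteasome, oxidative phosphorylation, NRF2 and heat shock medians turned under 1 to 4 of the 6 other scalings. All 10 metallothioneins lay between 0.33 and 0.73 (MT1G the highest), and their probes can read each other's transcripts. The 183 zinc finger genes of chromosome 19 had a median of −0.21. Of them 2 (1.09%, beside 3.63% of all genes) passed 2-fold toward 10 μM and 4 (2.19%, beside 3.95%) toward 100 μM. Both shares were below those of all genes. Furthest toward 100 μM was ZNF224 (88.7, 61.7 and 252, log2 ratio −2.34).

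Of the 15 genes furthest toward 100 μM, ZNF224 was the only member of a gene list. NAV3, a neuron navigator, had a signal of 30.7 in control cells, 27 at 10 μM and 162 at 100 μM (log2 ratio −2.90 ± 0.29), on 1 of its 2 probes, the other being at background on all arrays. CLSTN3, a calsyntenin, had 3341, 1287 and 5753 (−2.47 ± 0.07), and its other probe gave −2.69. BDH1, the mitochondrial ketone body dehydrogenase, had 338, 309 and 1072 (−2.11). SLC10A1, the bile acid transporter NTCP of hepatocytes, had 343, 106 and 520 (−2.61). For NAV3 and BDH1 the control signal was near 10 μM, whereas for CLSTN3 and SLC10A1 it lay well above 10 μM. Of genes above background at 100 μM but not at 10 μM, the largest bounds were BARX2 (at least 20-fold, signals 7.52, 6.37 and 365), NPR3 (at least 16.6-fold, signals 4.21, 4.87 and 302), CD84 (at least 11.4-fold) and TRH (at least 7.05-fold). Each of these was read on 1 spot, and the other CD84 probe was at background on all arrays. Chosen after their values were seen, the nuclear long noncoding RNAs NEAT1 (735, 1173 and 3542, log2 ratio −1.91) and MALAT1 (275, 426 and 762, log2 ratio −1.15) and the acute phase inhibitor SERPINA3 (4387, 7016 and 11907, log2 ratio −1.07) stepped up from control cells to 10 μM and again to 100 μM.

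Many probes at this end held a run of alternating G and A. The run came to notice after the ratios were seen, when the share of probes more than 2-fold higher at 100 μM was counted for each of the 20644 words of 8 letters found in 20 or more measured probes, and AGAGAGAG (61.1% of 72 probes) and GAGAGAGA (54.3% of 81) ranked highest. All of the 20 highest words held GAGAG or AGAGA. Of the 15 named genes furthest toward 100 μM, 7 were read by a probe with a run of 6 or more bases, compared with 0 of the 15 furthest toward 10 μM. These 7 probes are shown for the run that they share, and the functions of their genes were not compared. Each line is a stretch of 30 bases of the probe as the file gives it, with the run in capitals, for CCDC66 (probe at chr3:56628404-56628463, hg18), KRT79 (chr12:51501588-51501647), BICC1 (chr10:60258792-60258851), SLC10A1 (chr14:69312635-69312694), ZNF620 (chr3:40533706-40533765), OR52I2 (chr11:4565612-4565671) and C13orf30 (chr13:42262822-42262881).
CCDC66: cagtagctatGAGAGAGAGAatttgatctc
KRT79: aagccattagGAGAGAGAGAaattgggagt
BICC1: aaaaaggaagaAGAGAGAGAagatgttctt
SLC10A1: aaactAGAGAGAGcagcaaaaacaccagtc
ZNF620: aaaaagtttctAGAGAGAGAaaacaaaaga
OR52I2: GAGAGAatatggagttatctgatgcatgtc
C13orf30: AGAGAGgacaacctgtaacttttagaaaag

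CCDC66 had signals of 3917 in control cells, 1144 at 10 μM and 5507 at 100 μM (log2 ratio −2.58 ± 0.07). KRT79, an epithelial keratin, had 4663, 1709 and 6343 (−2.20), and BICC1, an RNA-binding protein, 2225, 730 and 2940 (−2.32). All 7 had their lowest signal at 10 μM and their highest at 100 μM, with control cells nearer to 100 μM. Over all probes measured on both arrays, 2.64% were more than 2-fold higher at 100 μM and 3.12% at 10 μM. The first share was 2.05% for probes with a run of 4 bases or fewer, 2.36% with 5, 9.98% with 6, 15.3% with 7, 42.3% with 8, 57.7% with 9 and 93.3% with 10 or more (14 of 15). Of 112 probes with a run of 8 or more, 59 were more than 2-fold higher at 100 μM and 1 at 10 μM. Of the same 112, 99 were lower at 10 μM than in control cells and 89 were higher at 100 μM than in control cells. Their median log2 ratio was −1.19, compared with −0.10 for the other probes. Probes with the complementary run of C and T did not share this, as 2 of 62 were more than 2-fold higher at 100 μM and their median was −0.21.

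The run also separated probes of 1 gene. In 39 genes with a probe holding a run of 8 or more and another with a run under 6, the former lay further toward 100 μM in 35. The median ratio over these genes was −0.78 on the probes with the run and −0.07 on the others, and 15 and 1 passed 2-fold. Of all 506 probes more than 2-fold higher at 100 μM, 122 (24.1%) had a run of 6 or more, compared with 3.5% of all measured probes. Leaving out every probe with such a run, as chosen after seeing the data, gave 595 genes higher at 10 μM and 533 higher at 100 μM. The probes of FGA (−1.25) and RPL39L (−1.70) hold a run of 7 and of 6, and the part of the run in their ratios was not tested. For FGA, the other 2 probes, with runs of 2 and 5, gave values close to the first. None of NAV3, CLSTN3, BDH1, NEAT1, MALAT1 or SERPINA3 was read by a probe with a run over 3.

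**Figure D5:**
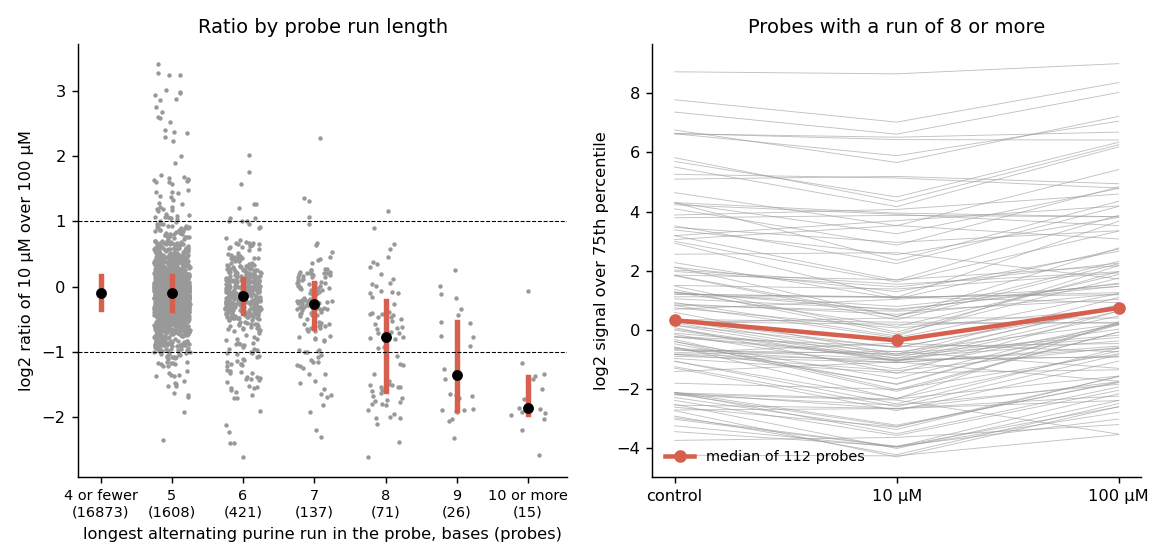
Left, log2 ratio of 10 μM over 100 μM for probes measured on both arrays, by the longest run of alternating purines in the probe (number of probes in brackets), with black dots for medians and red bars for quartiles; single probes are drawn in grey from 5 bases on, and dashed lines mark 2-fold. Right, levels of the 112 probes with a run of 8 or more on the 3 arrays, with their median in red. The median ratio goes from −0.10 at 4 bases or fewer to −1.85 at 10 or more, and on the right 99 of 112 lines dip at 10 μM.

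Markers of hepatocytes were present at both doses, since all 10 of them, ALB (3966, 2473 and 2327) and AFP among them, were well above background on both arrays. Of these, HNF4A passed 2-fold. Of 7 fibroblast and stellate markers, ACTA2 (1908, 8750 and 5861, log2 ratio 0.27) was measured at both doses and PDGFRB at 10 μM, with COL1A1, COL1A2, COL3A1, DCN and THY1 at background. Of 5 endothelial markers, CDH5 and PECAM1 were measured at both doses and VWF at 100 μM. The leukocyte markers CD3D (188, 1880 and 1358, log2 ratio 0.16), CD14 (521, 1184 and 1847, log2 ratio −0.95) and CD79A (3771, 3461 and 5416, log2 ratio −0.96) had signals in this line, with CD3D and CD14 above control at both doses. PTPRC, the pan-leukocyte marker CD45, had 257, 131 and 288 (−1.44) on a probe with a run of 7, and its other 4 probes were at background on all arrays.

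Other properties of genes and probes moved with the ratio by smaller amounts. By the length of the gene in the RefSeq table, known for 84.1% of measured genes, the median log2 ratio was −0.13 under 10 kb, −0.08 from 10 to 30 kb, −0.01 from 30 to 100 kb and −0.08 over 100 kb. The medians of the longest and the shortest genes differed by 0.05. When measured genes were cut into 6 equal groups by mean level, the median ratio was −0.36 in the dimmest and 0.02 in the brightest, and 7.42% and 0.894% of them were more than 2-fold higher at 100 μM. Probes with over 55% G and C had a median of −0.26 and those with up to 35% one of −0.01. The median was −0.06 for genes with a RefSeq mRNA accession and −0.27 for those known by an Ensembl transcript only. The part of these properties in the count of genes higher at 100 μM was not tested. Of the genes higher at 10 μM with 2 or more measured probes, 56 of 86 passed 2-fold on all of them and 6 had a probe on the other side of 0. For the genes higher at 100 μM these counts were 16 and 6 of 41.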

How the data were processed

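HepG2 cells were given 0, 10 or 100 μM etoposide for 30 h, and Cy3-labeled RNA of each was read on 1 array, all on 1 slide. The authors deposited the scanner output of Feature Extraction 10.7.3.1, in which the intensity of each spot is background-subtracted and not scaled between arrays. A deposited table of the series held the same intensity values for all 44495 spots. From these, log2 signals were averaged per probe without outlier spots and scaled to the 75th percentile over probes. A gene was represented by its brightest probe. A gene was counted when its ratio exceeded 2-fold and its brighter side was well above background. No test was made. Members and lists were chosen with earlier results of these data known. Genes named were the 15 at each end, the 5 largest bounds at each end, the 4 highest and 4 lowest members of each list, all members of lists of 13 or fewer, genes the study names, and the other probes of these. Some of these genes are not reported here. CRE, E2F, CHR and NF-Y letters were the only motifs searched. Of 27274 gene names, 20091 were matched by accession, symbol or synonym in the RefSeq table on GRCh38.p14. Probe positions are on hg18, as the files give them. No spot was saturated, and the spot SD was about 0.23 (log2) for dim and 0.05 for bright probes. Alternatives were other scalings, normexp (offset of 50), other filters, outlier spots kept, other rules for probes, NM genes only, probes as units, the series table and other thresholds. The steps were tested on simulated data. Python 3.11.15, numpy 2.4.6, pandas 2.3.3, R 4.3.3 and limma 3.58.1 were used.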

Additional observations from a re-analysis of the deposited data

How the results depend on the processing

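No paired analysis was possible because each dose had 1 array. With 1 array per dose no replicate could be left out, and neither a culture nor an amplification effect can be told apart from the dose. The counts of genes higher at 10 and at 100 μM, 610 and 663, became 1002 and 288 without scaling, 917 and 313 with the median of probes, 726 and 381 with quantile normalization, 842 and 342 with spike-in controls, 580 and 717 with the percentile over probes above background on both arrays, and 542 and 826 with the percentile over all spots. They became 400 and 153 with normexp, 509 and 413 with genes above background on both arrays, 937 and 2558 both with no filter and with the software's weaker detection call, and 544 and 413 with NM genes. Thresholds of 1.5-, 3- and 4-fold gave 1255 and 2400, 315 and 143, and 204 and 60. Of these calls, 47.9% were toward 10 μM, against 26.8% to 77.7% under the same settings. The median of all genes compared went from −0.11 to 0.20 without scaling, 0.16 with the median, −0.05 with quantiles, 0.12 with spike-ins and −0.18 with all spots. List medians shifted with it. In the order no scaling, median, spike-ins and all spots, the licensing list (2.04) was at 2.35, 2.31, 2.27 and 1.97, the kinetochore list (2.63) at 2.94, 2.90, 2.86 and 2.56, the p53 list (0.50) at 0.81, 0.76, 0.72 and 0.42, the immediate early list (0.18) at 0.49, 0.45, 0.41 and 0.11, and the plasma protein list (−0.42) at −0.11, −0.15, −0.20 and −0.49. With normexp the licensing, kinetochore and plasma protein lists were at 1.66, 1.96 and −0.35, and the cause was not tested. The kinetochore list was at 2.74 with quantiles and also at 2.74 with no filter and with the weaker detection call. The difference between the longest and shortest genes, 0.05, ran from 0.017 to 0.091 under the alternatives run. Of 5169 values of 327 named genes under 16 settings, 1446 moved by over 1 spot SD. A change of sign was looked for only where the log2 ratio was beyond 1 in size, and 0 were found. This count is no test of robustness. Scaling by a single factor moved all ratios alike and by far less than 1. The rule that used every probe of a gene set genes with disagreeing probes to 0, which was not counted. Signal over background limits the dim genes, and of those higher at 100 μM, 251 of 413 measured on both arrays lay within 2 spot SDs of the threshold.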
